A study of Mus musculus with 6 samples.

Results

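Collagens are the main structural proteins of the gut wall, and their chain genes were followed in the jejunum of mice that lack Hnf4a in the intestinal epithelium. The chains were taken as all platform gene symbols made of Col, a number, the letter a and a number, read from probe sets with exactly 1 symbol. Each gene was represented by the probe set with the highest mean over the 6 arrays. This gave 42 chains among 18193 genes, of which 11 were fibrillar chains, 6 were basement membrane chains and 25 were other chains. The 3 mutants were littermates of the 3 controls, and all were 7 months old. In the mutants Hnf4a had been deleted with Cre under a 12.4-kb Villin promoter, which is active in epithelial cells. Every animal carries the strain label B6.129X1(FVB)-Hnf4atm1.1Gonz/J, a conditional Hnf4a allele, and was anaesthetised with ketamine and xylazine before it was killed. The labels used here do not say whether the controls carried Cre. RNA came from biopsies of the whole distal jejunum wall, with 1 array per animal, so the p-values rest on the spread between animals.

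Collagen chains wind round each other into rods with a glycine at regular steps, and the rods assemble outside the cell. Fibrillar types I, III and V build the tensile fibres of the submucosa and lamina propria, type IV builds the sheet under the epithelium and around vessels and muscle cells, and type VI forms beaded microfibrils beside basement membranes. In the gut most of these chains are made by fibroblasts and smooth muscle cells, which lie outside the cells where the Villin promoter is active. In samples of whole wall, fewer cells of a type and less RNA per cell cannot be told apart.

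No collagen chain passed the test. With limma's moderated test and Benjamini-Hochberg adjustment over all genes, 0 of 42 chains were called at an adjusted p under 0.05, against 0.528% of all genes, 0.198% higher and 0.330% lower in mutants. The smallest adjusted p of a chain was 0.314. At an unadjusted p under 0.05 there were 2 chains, against 12.1% of all genes. They were Col4a4, higher in mutants as were 5.24% of all genes, and Col27a1, lower as were 6.85%. The values of the 3 mutants lay wholly beyond those of the 3 controls for 3 chains, against 17.1% of all genes. Col4a4 and Col9a2 lay above (6.93% of all genes) and Col27a1 lay below (10.2%).

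The differences were small as well as uncertain. Mutant minus control ranged over the 42 chains from -0.26 to 0.29 on the log2 scale, with 21 chains above 0 and 21 below, and a median of -0.01 equal to that of all genes at this precision. The median was -0.05 for fibrillar chains, 0.11 for basement membrane chains and -0.02 for other chains. Dim chains weigh on these medians. Among chains brighter than the median gene, medians were 0.05 (6 fibrillar), 0.13 (2 basement membrane) and -0.0017 (10 other). For all genes brighter than the median gene it was -0.02. The 95% interval of the difference stayed within a 2-fold change in either direction for all 42 chains, against 95.0% of all genes. For 32 chains it stayed within 0.5 (log2), against 67.0% of all genes. Among the 18 chains brighter than the median gene it did so for 12, against 57.6% of all genes brighter than it. Of the 6 fibrillar chains among these 18 it did so for 3. These intervals are those of single genes, with no adjustment for their number.

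**Figure D1:**
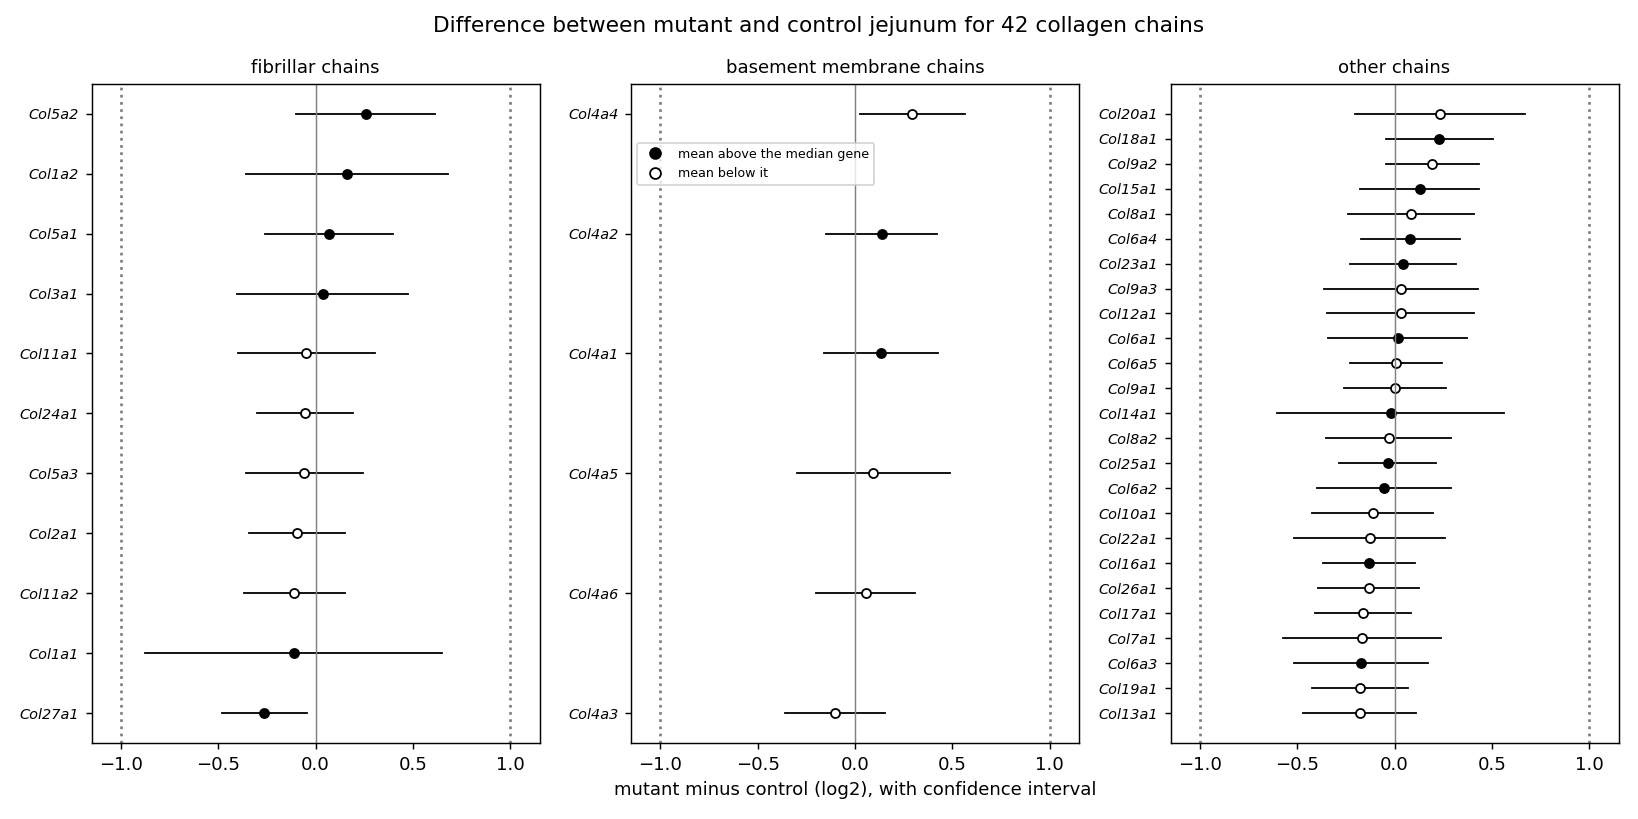
Mutant minus control (log2, horizontal axis) for the 42 chains with 95% intervals from limma, in 3 panels by class. Filled points are chains whose mean exceeds the median gene, dotted lines mark a 2-fold change, and no interval reaches them.

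Not every chain had a clear signal. The mean over the 6 arrays exceeded that of the median gene (5.42, log2) for 18 chains, namely 6 fibrillar, 2 basement membrane and 10 other chains. On every array 24 chains lay above that array's median probe set, and 14 lay below it on all 6, where the signal may be close to background. The 14 include Col4a3, Col4a4, Col2a1, Col11a1, Col11a2 and Col24a1, and for these chains a small difference says little about expression.

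**Figure D2:**
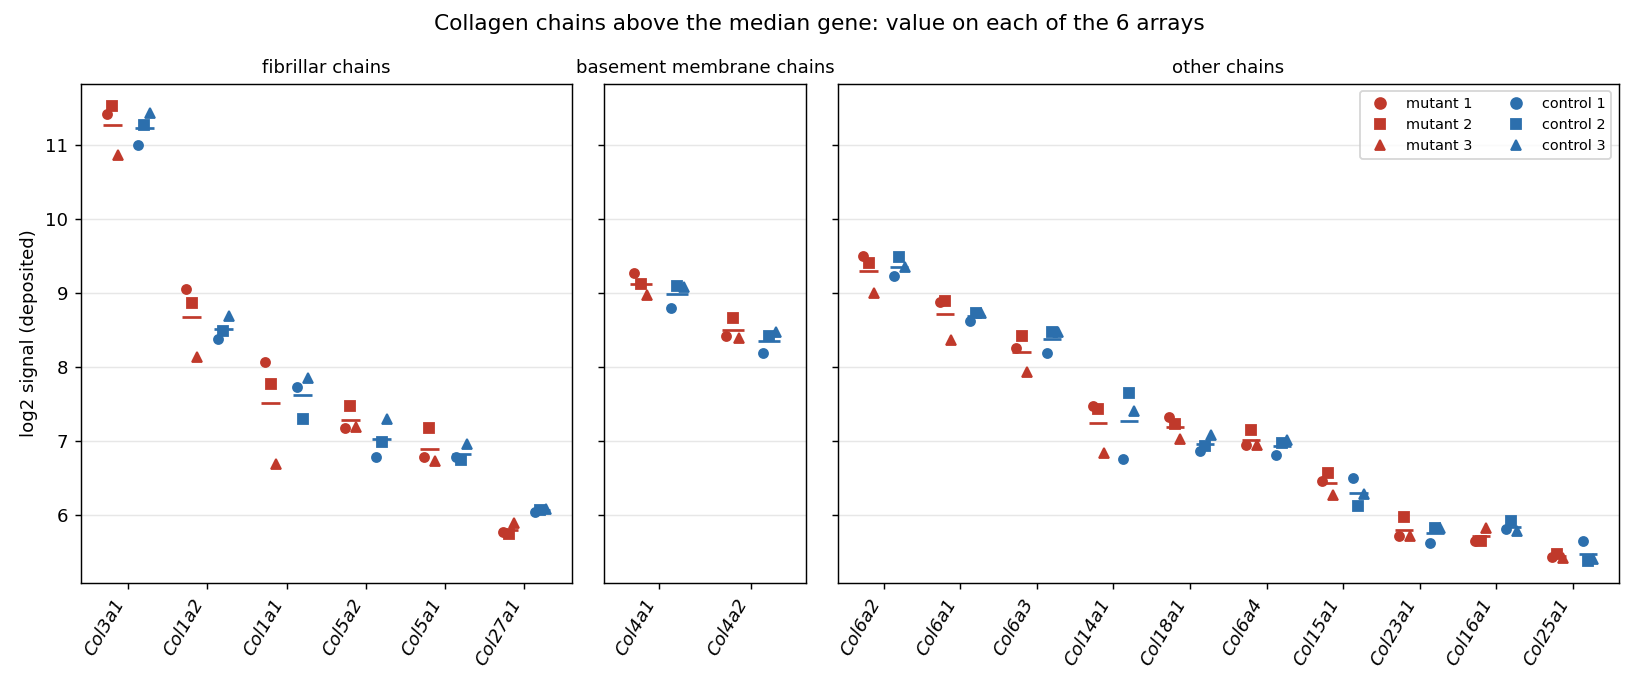
Deposited log2 signal (vertical axis) of the 18 chains above the median gene on each array, in 3 panels by class, with mutants in red to the left of controls in blue and bars at the group means. Mutant 3, the red triangle, is the lowest point for Col1a1, Col1a2, Col3a1, Col5a1, Col6a1, Col6a2 and Col6a3, and the groups are apart for Col27a1 alone.

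Among fibrillar chains, type III and type I collagen overlapped between the groups. Col3a1, the single chain gene of type III, read 11.42, 11.53 and 10.87 in mutants 1, 2 and 3, against 11.00, 11.27 and 11.43 in controls 1, 2 and 3. Its difference was 0.04 ± 0.19 SE (adjusted p = 0.966). Col1a2, the minor chain of type I, read 9.05, 8.86 and 8.13 in mutants, against 8.38, 8.49 and 8.69 in controls. Mutants 1 and 2 were above every control and mutant 3 below every control, so the difference of 0.16 ± 0.23 SE (adjusted p = 0.85) averages opposite deviations. On the brighter of its further probe sets Col1a2 read 6.81, 6.96 and 6.07 in mutants, against 6.64, 6.55 and 6.81 in controls. There mutant 1 was not above control 3, mutant 3 was again lowest, and the difference was -0.06 ± 0.22 SE. Col1a1, the major chain of type I, had the widest spread of all 42 chains, with 8.07, 7.76 and 6.69 in mutants, against 7.72, 7.30 and 7.84 in controls. The pooled SD was 0.55 (n = 3 each), and the 95% interval of the difference ran from -0.87 to 0.65. Mutant 3 also read lowest on the further Col1a1 probe set, at 5.31, against 5.83 to 6.20 in the other mutants and 5.78 to 5.90 in controls.

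Type V chains, which sit inside type I fibres and limit their width, differed by less than the test could call. Col5a2 read 7.17, 7.47 and 7.19 in mutants, against 6.78, 6.98 and 7.30 in controls, and control 3 lay inside the range of the mutants. Its difference of 0.26 ± 0.16 SE (adjusted p = 0.579) was the largest above 0 among fibrillar chains on the probe sets used. Col5a1 read 6.78, 7.18 and 6.72 in mutants, against 6.78, 6.73 and 6.96 in controls. Mutant 2 was the highest array for Col5a1, and mutants 1 and 3 were not above the highest control. Further probe sets gave 0.28 ± 0.14 SE and 0.02 ± 0.11 SE for Col5a1 and 0.31 ± 0.20 SE for Col5a2, all with overlapping groups. The third type V gene, Col5a3, lay under the median gene at 4.08, 4.07 and 3.83 in mutants, against 4.25, 3.88 and 4.02 in controls.

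Col27a1, a fibrillar chain known from cartilage, was the chain with the smallest p. It read 5.76, 5.74 and 5.88 in mutants, against 6.03, 6.07 and 6.08 in controls, so each mutant was below each control. The difference was -0.26 ± 0.10 SE (fold 0.833, unadjusted p = 0.024 and adjusted p = 0.314 in limma's test), and its pooled SD of 0.06 was the smallest of the 42 chains. On the further Col27a1 probe set the groups overlapped, with 3.58, 4.04 and 3.92 in mutants, against 4.11, 3.91 and 3.90 in controls. The remaining fibrillar chains, Col2a1, Col11a1, Col11a2 and Col24a1, are best known from cartilage and bone, and their array values lay between 2.20 and 3.88.

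The stretches before the starts of 3 fibrillar genes are shown because these chains lead the class in p or in signal, and that of Col6a3 because it shares its 2 lowest arrays with Col3a1. They come from RefSeq on build GRCm38.p6, in which 33 of the 42 chains had a window of 250 bases before and 50 after the start, 36 windows in all. Capitals mark letter matches on either strand to GGGCGG (the GC box), CCAAT or TATAAA, none of which overlap each other in these 4 sequences, and each run is the 250 bases before the start.
Col27a1, chr4:63215162-63215411, plus strand: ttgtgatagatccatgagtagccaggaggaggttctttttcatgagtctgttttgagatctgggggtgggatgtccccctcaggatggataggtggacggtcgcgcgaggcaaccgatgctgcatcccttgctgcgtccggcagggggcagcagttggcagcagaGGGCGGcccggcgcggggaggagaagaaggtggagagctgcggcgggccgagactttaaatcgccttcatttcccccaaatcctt
Col1a2, chr6:4505368-4505617, plus strand: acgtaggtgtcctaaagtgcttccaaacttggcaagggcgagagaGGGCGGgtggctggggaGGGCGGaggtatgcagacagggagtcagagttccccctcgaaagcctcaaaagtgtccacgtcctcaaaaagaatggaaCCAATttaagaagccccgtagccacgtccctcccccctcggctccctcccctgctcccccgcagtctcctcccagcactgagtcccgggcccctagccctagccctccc
Col3a1, chr1:45311288-45311537, plus strand: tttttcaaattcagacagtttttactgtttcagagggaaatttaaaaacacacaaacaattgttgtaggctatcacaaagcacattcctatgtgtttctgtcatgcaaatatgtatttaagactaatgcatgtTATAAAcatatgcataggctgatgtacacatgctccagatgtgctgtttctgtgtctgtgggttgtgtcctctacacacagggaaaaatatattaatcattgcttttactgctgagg
Col6a3, chr1:90843972-90844221, minus strand: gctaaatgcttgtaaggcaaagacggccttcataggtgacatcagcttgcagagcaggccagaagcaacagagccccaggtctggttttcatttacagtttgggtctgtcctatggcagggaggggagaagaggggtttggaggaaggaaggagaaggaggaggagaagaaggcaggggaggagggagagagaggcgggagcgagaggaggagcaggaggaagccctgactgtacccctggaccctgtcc

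The 4 sequences hold no common pattern of these letters. Col1a2 has 2 GC boxes and 1 CCAAT, Col27a1 has 1 GC box, Col3a1 has 1 TATAAA, and Col6a3 has none of them. Over whole windows of 300 bases, a GC box was in 22 of 36 chain windows, against 35.7% of 32851 RefSeq windows. CCAAT was in 13 of the 36, against 37.4% of all, and TATAAA in 5, against 13.6%. The letters CAAAGTCCA, a form of the element that HNF4 binds, were searched on both strands as well, and were found in 0 of the 36 chain windows, against 0.475% of all windows. With so low a share over all windows, a count of 0 in 36 says little about the chains. These are matches of letters in a short window and not binding sites.

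Among basement membrane chains, Col4a1 and Col4a2, which together form the common type IV network, gave nearly equal differences on the probe sets used. Col4a1 read 9.27, 9.12 and 8.98 in mutants, against 8.80, 9.10 and 9.08 in controls, a difference of 0.13 ± 0.13 SE (95% interval -0.16 to 0.43, adjusted p = 0.76). Col4a2 read 8.42, 8.67 and 8.39 in mutants, against 8.19, 8.41 and 8.47 in controls, a difference of 0.14 ± 0.12 SE (95% interval -0.15 to 0.42, adjusted p = 0.74). Control 1 was the lowest array for both, and otherwise the groups overlapped. On the further Col4a1 probe set, with a mean of 7.88, the difference was smaller, at 0.05 ± 0.09 SE, and the groups overlapped. These genes lie on opposite strands with RefSeq starts 21 bases apart, and the start of each lies just inside the other, so that their promoter windows share 78 bases. The stretch from start to start is shown because it follows both starts and lies in both windows, with a GC box in capitals.
Col4a1 and Col4a2, GRCm38.p6 chr8:11312805-11312826, plus strand: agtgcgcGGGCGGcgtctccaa

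The other type IV chains were dim. Col4a6 read 4.86, 4.91 and 4.97 in mutants, against 4.92, 4.97 and 4.69 in controls, and Col4a5 lay between 3.57 and 4.23 over all arrays. The RefSeq starts of this pair, which point away from each other, are 1343 bases apart. Col4a3 and Col4a4, chains of the specialised basement membrane of the kidney filter, lay between 2.56 and 3.14. Col4a4 read 2.96, 3.14 and 2.90 in mutants, against 2.81, 2.76 and 2.56 in controls, so the groups were apart, by 0.29 ± 0.12 SE (adjusted p = 0.358). All of these values were under the median of their arrays, and on its other probe sets the groups overlapped, with differences of -0.0024 and -0.02.

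Type VI collagen was the brightest of the other chains. Col6a1, Col6a2 and Col6a3 encode the chains of its usual monomer. Col6a2 read 9.50, 9.41 and 9.00 in mutants, against 9.24, 9.48 and 9.36 in controls. Col6a1 read 8.88, 8.89 and 8.36 in mutants, against 8.63, 8.73 and 8.73 in controls. Col6a3 read 8.25, 8.42 and 7.94 in mutants, against 8.19, 8.47 and 8.47 in controls. Mutant 3 was the lowest array for all 3 chains and control 1 the next, and the differences were -0.05 ± 0.15, 0.02 ± 0.15 and -0.17 ± 0.15 SE for Col6a2, Col6a1 and Col6a3 (adjusted p = 0.932, 0.981 and 0.723). Col6a4, an alternative to the third chain that is functional in mice, differed by 0.08 ± 0.11 SE, with 6.94, 7.15 and 6.94 in mutants, against 6.81, 6.97 and 7.01 in controls. Col6a5 lay between 2.65 and 2.85.

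The multiplexins, basement membrane collagens with interrupted helices, both lay above the median gene. Col18a1, whose end fragment is endostatin, read 7.32, 7.22 and 7.02 in mutants, against 6.86, 6.93 and 7.08 in controls. Mutants 1 and 2 were above every control, and mutant 3 was below control 3. The difference was 0.23 ± 0.12 SE (fold 1.17, adjusted p = 0.506). On its further probe set it was 0.23 ± 0.10 SE, with 6.58, 6.52 and 6.45 in mutants all above 6.18, 6.25 and 6.43 in controls (adjusted p = 0.548 over all probe sets). Col15a1 read 6.45, 6.56 and 6.27 in mutants, against 6.50, 6.11 and 6.28 in controls. Mutant 2 was above every control and control 2 below every mutant, and the other values overlapped.

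Fibril-associated chains, which coat fibres without forming them, overlapped wherever they were bright. Col14a1, named after its values were seen, read 7.47, 7.43 and 6.83 in mutants, against 6.75, 7.64 and 7.40 in controls. Its difference was -0.02 ± 0.25 SE (95% interval -0.60 to 0.56), and its low arrays were mutant 3 and control 1. Col16a1 read 5.64, 5.65 and 5.82 in mutants, against 5.81, 5.91 and 5.78 in controls, a difference of -0.13 ± 0.10 SE (adjusted p = 0.694). Col12a1, Col20a1 and Col22a1 lay between 3.95 and 5.22, and Col9a1, Col9a2, Col9a3 and Col19a1 between 2.41 and 4.07. In Col9a2, named after its values were seen, the groups were apart at 2.81, 2.69 and 2.71 in mutants, against 2.64, 2.41 and 2.58 in controls (difference 0.19 ± 0.10 SE, adjusted p = 0.525). All of these Col9a2 values were under the median of their arrays.

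The transmembrane and remaining chains showed no separation. Col23a1, a transmembrane chain, read 5.71, 5.97 and 5.71 in mutants, against 5.62, 5.82 and 5.82 in controls (difference 0.04 ± 0.12 SE). Col25a1, the collagen found in amyloid plaques, read 5.43, 5.47 and 5.41 in mutants, against 5.64, 5.38 and 5.40 in controls (difference -0.04 ± 0.11 SE). Col13a1 lay between 4.68 and 5.10, and Col17a1, the hemidesmosomal collagen of skin, between 2.43 and 2.75. Col7a1 of anchoring fibrils lay between 3.91 and 4.67, and Col8a1 between 4.23 and 4.72. Col8a2, Col10a1 and Col26a1 all lay between 2.58 and 3.74.

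Further probe sets of the same chains gave no call either. The 42 chains had 82 probe sets, and 27 chains had more than 1. Of the 40 further probe sets, 24 differed in the same direction as the one used, and among the 14 brighter than the median probe set 10 did so. None of the 82 passed the test over all 45037 probe sets in limma (0 at an adjusted p under 0.05, against 0.193% of all probe sets). At an unadjusted p under 0.05 there were 3, against 9.69% of all probe sets. Those 3 were the ones used for Col27a1 and Col4a4 and a further probe set of Col8a1, which lay lower in mutants by 0.33 ± 0.14 SE, while the brighter probe set of Col8a1 differed by 0.08 the other way.

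The clearest order among the bright chains ran across animals and not between the groups. Over the 18 chains above the median gene, mutant 3 was the lowest array for 7 and control 1 for another 7. Mutant 3 was the highest array for 0 of them and control 1 for 1. Among all 9096 genes above the median gene, mutant 3 was lowest in 28.0% and control 1 in 13.9%. For 10 of the 18 chains mutant 3 and control 1 were the 2 lowest arrays, against 6.89% of all genes above the median gene. The 10 were Col1a2, Col3a1, Col4a1, Col4a2, Col6a1, Col6a2, Col6a3, Col6a4, Col14a1 and Col23a1. This pattern was noticed in these values and counted afterwards, and chains that share cells of origin are not independent of each other.

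**Figure D3:**
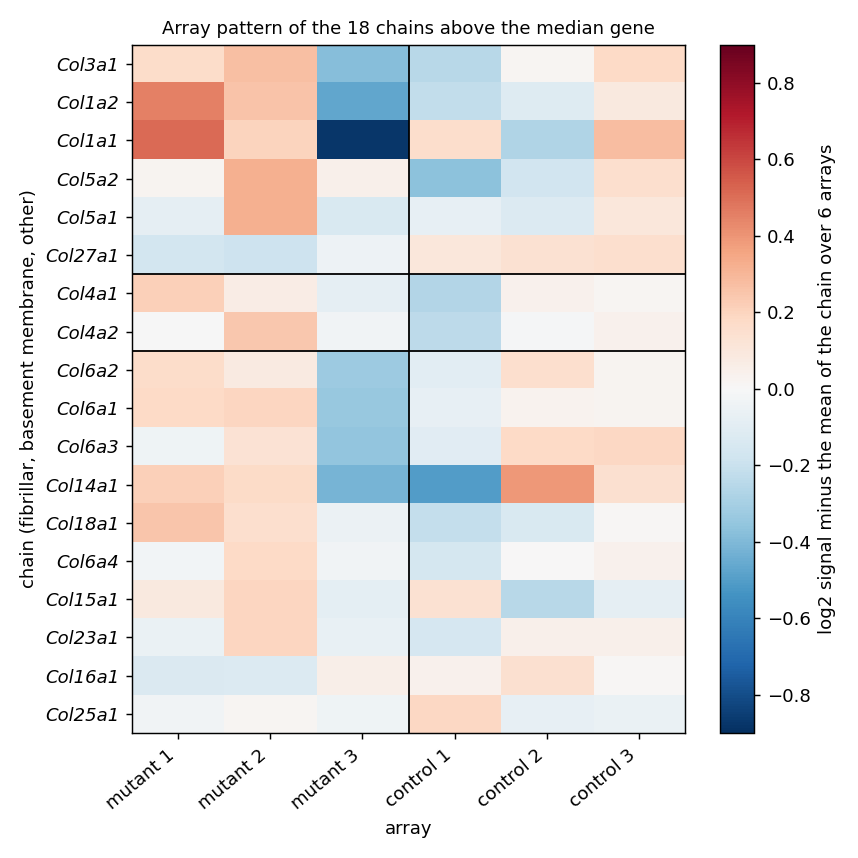
Log2 signal of each of the 18 chains above the median gene minus its mean over the 6 arrays, with arrays in columns (mutants left) and chains in rows by class. Blue cells, below the chain's mean, gather in the columns of mutant 3 and control 1, and Col1a1 in mutant 3 is the darkest.

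These same 2 arrays carried Y-linked transcripts. The mean log2 signal of Eif2s3y, Kdm5d and Uty was 2.54, 2.53 and 5.62 in mutants 1, 2 and 3, against 5.54, 2.55 and 2.70 in controls 1, 2 and 3. Xist read 7.94, 8.61 and 4.88 in mutants, against 4.95, 8.87 and 8.50 in controls, lowest in mutant 3 and control 1. Between mutant 3 and control 1 the median difference of the 18 chains was -0.09, and between mutants 1 and 2 and controls 2 and 3 it was 0.11, values without a test. Of the 18 chains 8 had the same sign in both. Col1a1 was lower by 1.04 in mutant 3 than in control 1, and higher by 0.35 in mutants 1 and 2 than in controls 2 and 3. With the presence of Y-linked transcripts as a term of the fit, 0 of 42 chains passed, and the smallest adjusted p was 0.326. Over all genes, more were called with this term than with group alone. The part of this split in the order of the arrays was not tested.

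Markers of the cells that make collagen were measured beside the chains. Of 13 fibroblast markers 10 had a mean difference above 0 and 0 passed (median difference 0.11). Pdgfrb, a receptor of fibroblasts and pericytes, had the smallest p, with 8.05, 7.87 and 8.32 in mutants, against 7.21, 7.58 and 7.23 in controls (0.74 ± 0.15 SE, adjusted p = 0.0982). The 3 below 0 were Tcf21 (-0.14 ± 0.14 SE), Fndc1 (-0.13 ± 0.14 SE) and Twist2 (-0.11 ± 0.09 SE). At an unadjusted p under 0.05, 2 of the 13 lay higher and 0 lower, against 5.24% and 6.85% of all genes. The groups were apart with mutants above in 2 and below in 1 (Twist2), against 6.93% and 10.2% of all genes. Summed linear signal of these markers ranged from 2211 to 2448 in mutants and from 1685 to 2215 in controls. Of 11 smooth muscle markers 0 passed (median 0.02), with a summed signal of 15152 to 17808 in mutants and 14707 to 17905 in controls, and all 11 lay above the median gene. Of these 11, 8 differences were above 0 and 3 below. They ran from Smtn (-0.09 ± 0.14 SE) to Tagln, an actin-binding protein of smooth muscle (0.18 ± 0.14 SE). Mutant 3 and control 1, the low arrays of the chains, were also the 2 lowest in the mean of 12 endothelial markers, at 5.38 and 5.33, against 5.46 and 5.70 in the other mutants and 5.65 and 5.47 in the other controls. In the mean of the fibroblast markers control 1 was lowest at 5.89, while mutant 3 stood at 6.06 and control 3 lower at 6.01. In the mean of the smooth muscle markers mutant 3 stood at 9.71 and control 1 at 9.74, with control 2 also at 9.71. The part of cell composition in the chains' values was not tested.

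Markers of other tissue set single arrays apart. Fat markers averaged 8.69 in mutant 2, against 7.05 to 7.52 on the other arrays, with a summed linear signal of 1777 to 8369 in mutants and 2294 to 2891 in controls, and mutant 2 was the highest array for 8 of the 18 bright chains, against 18.5% of all genes above the median gene. Acinar markers averaged 7.96 in control 3, against 4.36 to 4.54 on the others. Their summed linear signal was 286.5 to 306.2 in mutants and 269.0 to 2024 in controls. Control 3 was lowest for 0 of the 18 chains and highest for 2, against 10.8% and 15.3% of all genes above the median gene. The part of fat or acinar tissue in the chains' values was not tested. Without mutant 2 and control 3 together 0 of 42 chains passed, and the smallest adjusted p was 0.662. Only 4 of 18193 genes were called in that setting, so the count of 0 says little about the chains. Of the other lists, epithelial markers averaged 11.92 to 12.17 over the arrays with all 11 above the median gene, and 6 of the 11 differences were above 0 (median 0.03). The keratin gene Krt18 (0.68 ± 0.23 SE) and the cadherin gene Cdh1 (0.33 ± 0.10 SE) had the smallest p among those above 0, and the villin gene Vil1 (-0.14 ± 0.10 SE) among those below. Of 12 endothelial markers 6 were above 0 (median 0.04), from Emcn (-0.55 ± 0.30 SE) to Vwf (0.40 ± 0.22 SE). Of 9 macrophage markers 7 were above 0 (median 0.28). At an unadjusted p under 0.05, Cd14 (0.60 ± 0.19 SE), Csf1r (0.40 ± 0.13 SE) and Adgre1 (0.28 ± 0.10 SE) lay higher and Lyz2 (-0.35 ± 0.11 SE) lower, with groups apart in all 4. Of all genes 5.24% lay higher and 6.85% lower at that level, and the groups were apart in 17.1%. Of 9 glial and neuronal markers 4 were above 0 (median -0.0031), and of 7 mesothelial markers 3 (median -0.05). None of the genes on these lists passed. Hnf4a itself fell, with 8.83, 8.83 and 9.82 in mutants, against 11.82, 11.76 and 11.57 in controls (adjusted p = 0.00756), a call that was lost without control 2 (adjusted p = 0.0506), with the floor at the 20th percentile of values (0.114) and without control 3 and mutant 2 together (0.205).

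Genes that modify, process, bind and break down collagen had larger differences in single cases than the chains did, and none of them passed the test. In 7 lists with 116 measured genes, 0 passed over all genes in limma's test. At an unadjusted p under 0.05 there were 13 higher and 4 lower, against 5.24% and 6.85% of all genes. The list medians lay between 0.01 and 0.08, against -0.01 for all genes.

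**Figure D4:**
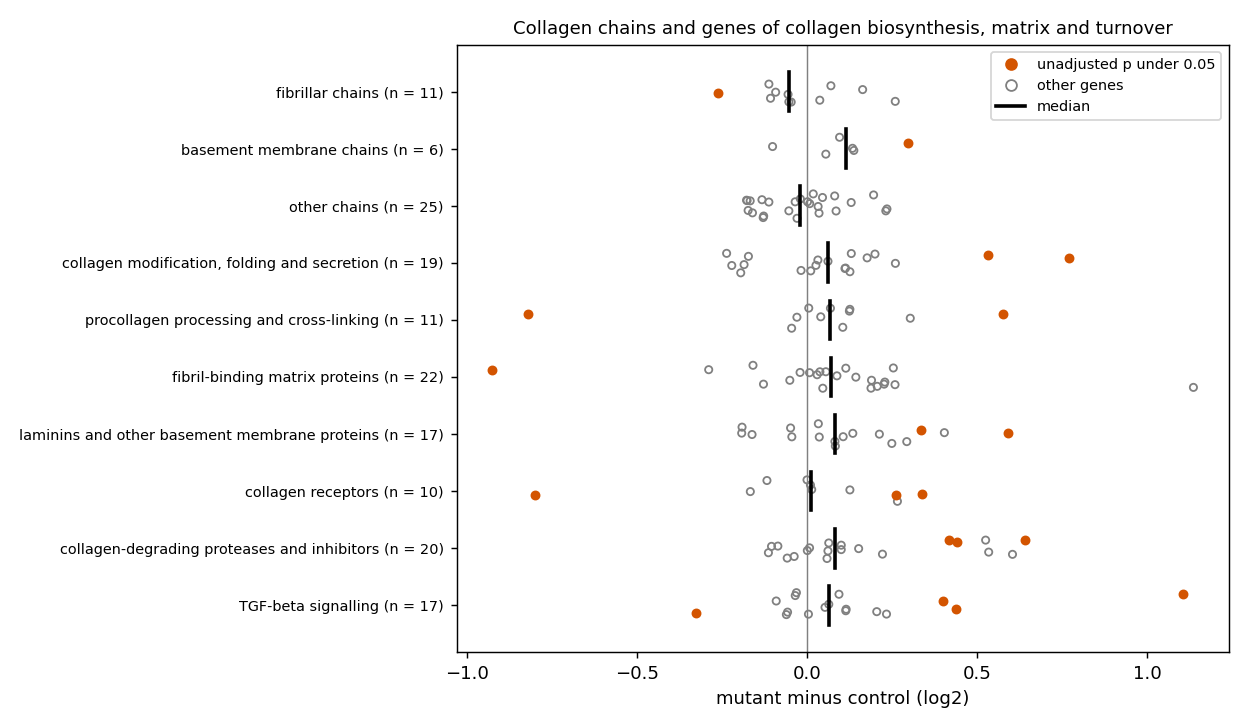
Mutant minus control (log2, horizontal axis) for the collagen chains by class and for the members of 7 related lists, 1 point per gene, with bars at the medians. The chains lie between -0.26 and 0.29, while single genes of the related lists lie as far out as -0.93 (Fbln1) and 1.14 (Thbs1). Thbs1, a fibril-binding matrix protein gene, is at 1.14 ± 0.72 SE with overlapping groups. Its mutants 1, 2 and 3 read 4.39, 5.50 and 7.77, so its place at the far right rests largely on mutant 3.

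Of 19 genes for modification, folding and secretion, 2 lay higher at an unadjusted p under 0.05, against 5.24% of all genes. Plod2, the lysyl hydroxylase of collagen ends that prepares cross-links, read 5.22, 5.53 and 5.66 in mutants, against 4.34, 5.01 and 4.75 in controls (0.77 ± 0.19 SE, adjusted p = 0.151). P4ha1, a catalytic subunit of prolyl hydroxylase, read 5.57, 5.65 and 6.15 in mutants, against 5.25, 5.01 and 5.51 in controls (0.53 ± 0.19 SE, adjusted p = 0.299). In both genes every mutant was above every control. This held for 3 of the 19, against 6.93% of all genes, while 2 lay wholly below, against 10.2%. Those 2 were P4hb and Colgalt2. P4hb, a far brighter gene than P4ha1, read 12.43, 12.45 and 12.42 in mutants, against 12.69, 12.55 and 12.58 in controls (-0.17 ± 0.09 SE, adjusted p = 0.532). Colgalt2, a collagen galactosyltransferase, differed by -0.19 ± 0.09 SE at a level near the array medians. Averaging all its probe sets brought the difference of Plod2 to 0.39 (adjusted p = 0.483).

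Of 11 genes for procollagen processing and cross-linking, 1 lay lower and 1 higher at that level, against 6.85% and 5.24% of all genes. Bmp1, the protease that removes the C-terminal propeptide of fibrillar procollagens, read 5.99, 6.01 and 5.85 in mutants, against 6.45, 7.01 and 6.86 in controls. Each mutant was below each control, by 0.82 on average (difference -0.82 ± 0.15 SE, adjusted p = 0.0762). Tgm2, a transglutaminase that cross-links matrix proteins, read 10.79, 10.67 and 11.03 in mutants, against 10.20, 10.25 and 10.31 in controls (0.58 ± 0.12 SE, adjusted p = 0.0961). Loxl1, a lysyl oxidase of elastic fibres, differed by 0.30 ± 0.14 SE. With the Y-linked term Bmp1 passed (adjusted p = 0.0307), as it did without control 1 (-0.99, adjusted p = 0.0329), and the mean of its probe sets gave -0.44 (adjusted p = 0.123).

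Among 22 matrix proteins that bind fibres, 1 lay lower at that level, against 6.85% of all genes. Fbln1, a glycoprotein of basement membranes and elastic fibres, read 8.93, 8.87 and 8.19 in mutants, against 9.39, 9.58 and 9.81 in controls (-0.93 ± 0.21 SE, adjusted p = 0.122). Its groups were apart, and with the Y-linked term it passed (adjusted p = 0.03), while the mean of its probe sets gave -0.51 (adjusted p = 0.184). Mfap2, a microfibril protein, differed by -0.29 ± 0.13 SE and the fibronectin gene Fn1 by 0.19 ± 0.11 SE. Of 17 laminins and other basement membrane proteins, 2 lay higher, against 5.24% of all genes. They were the epithelial laminin chain Lamb3 (0.33 ± 0.12 SE) and Lamb2 (0.59 ± 0.22 SE). Lamb1 lay higher by 0.40 ± 0.19 SE with an unadjusted p over 0.05, and in all 3 genes every mutant was above every control. The same held for Smoc1 and Lamc1, making 5 of the 17, against 6.93% of all genes. In 0 of the 17 was every mutant below every control, against 10.2% of all genes.

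Receptors, proteases and growth factor genes gave mixed values. Of all genes, 5.24% lay higher and 6.85% lower at an unadjusted p under 0.05, the level counted here. Of 10 collagen receptors, 2 lay higher and 1 lower, namely the kinase receptor Ddr1 (0.34 ± 0.11 SE), the integrin subunit Itga1 (0.26 ± 0.11 SE) and Cd36, which also takes up fatty acids (-0.80 ± 0.28 SE). Of 20 proteases and inhibitors, 3 lay higher. They were the Paneth cell protease Mmp7 (0.64 ± 0.17 SE, adjusted p = 0.185), Mmp3 (0.44 ± 0.13 SE, under the array medians) and the lysosomal protease Ctsl (0.42 ± 0.15 SE). Of 17 genes of TGF-beta signalling, the main inducer of fibrillar collagens, 3 lay higher and 1 lower. The receptor Tgfbr2 lay higher by 0.40 ± 0.13 SE, the latent binding protein Ltbp3 by 0.44 ± 0.16 SE, and Ccn2, a matrix protein and TGF-beta target named to complete the count, by 1.10 ± 0.44 SE with overlapping groups. The signal transducer Smad2 differed by -0.33 ± 0.13 SE.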

How the data were processed

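The authors deposited 1 value for each probe set on each of 6 Affymetrix arrays, on a log2 scale as judged from the range of 1.80 to 14.5. How they corrected background, summarised probes and normalised arrays is not given in the labels used here. Array medians lay between 3.93 and 3.98, so values were used as deposited. Of 45101 probe sets, 64 controls were left out, and 34945 of the other 45037 had 1 symbol, 932 several and 9160 none listed. All 42 chains were found in the RefSeq table by Entrez identifier, with the same symbol.

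Groups were compared with limma 3.58.1 in R 4.3.3, fitting group alone (lmFit, eBayes, two-sided), and p-values were adjusted over 18193 genes. Precision is limited by having 6 arrays. In 10 simulated sets of this comparison with 18193 genes, 200 genes drawn from all of them were changed by known steps. The test recovered 19.0% of genes with a log2 change of 0.5, 74.9% at a change of 1 and 95.3% at a change of 2. Of the 95% intervals 94.8% held the true value. These rates are not those of the chains alone. The median pooled SD was 0.15 for all genes, 0.16 for the 42 chains and 0.26 for the 6 fibrillar chains above the median gene.

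Members and lists were chosen with earlier results of these data known. Chains above the median gene were given array by array (the 8 with the smallest p and the 3 brightest per class), as were chains with an unadjusted p under 0.05, and up to 3 genes per list. Alternatives were quantile normalisation, median centring, testing only genes above the median gene, a floor at the 20th percentile of values, other probe set rules, a trended and robust variance, the replicate number as a block and the omission of arrays. The Y-linked term was added after the data were seen.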

Additional observations from a re-analysis of the deposited data

How the results depend on the processing

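Under all 16 alternatives, 6 of them the omission of 1 array, no chain passed (0 of 42, or 0 of 18 where only genes above the median gene were tested), with adjusted p of at least 0.178 (floor at the 20th percentile). The count of chains at an unadjusted p under 0.05, 2 as reported, was 1 with genes above the median gene only (Col27a1, against 16.2% of the genes in that setting), 1 with the most variable probe set (Col4a4, 11.6%), 1 with the trended and robust variance (Col4a4, 11.96%), 1 without control 3 and mutant 2 together (Col20a1, which is neither of the reported chains, 7.28%) and 0 with the mean of probe sets (11.8%), and ranged from 0 to 4 when 1 array was left out (4 without mutant 3, against 11.7% of all genes, 0 without control 2, against 8.87%, and 1 without mutant 1, Col4a4, and without mutant 2, Col20a1, against 13.2% and 12.2%). Without control 3 there were 2 chains, Col22a1 and Col5a2, neither of them a reported chain, against 8.07% of all genes. Without control 1 there were 3 (Col13a1, Col27a1 and Col4a4), against 10.6%. The 4 without mutant 3 were Col18a1, Col1a2, Col27a1 and Col4a4. Class medians ranged from -0.073 to 0.081 for fibrillar chains (0.081 without mutant 3), from 0.044 to 0.176 for basement membrane chains and from -0.053 to 0.033 for other chains (0.033 without control 3) when 1 array was left out. Over all genes 96 were called, against 2 with the floor, 62 with the replicate block, 4 without control 3 and mutant 2 together, 194 with the Y-linked term and 22 to 96 with 1 array left out (22 without control 3, 24 without control 2, 41 without mutant 2). Deviations of same-numbered arrays correlated at 0.07, 0.07 and -0.02, so the numbers were not taken as pairs. The replicate block changed no call of a chain or of a related gene. Of the related genes 2 passed with the Y-linked term, and 0 to 1 with 1 array left out (1, Bmp1, without control 1).

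Directions near 0 turned in some settings. The mean of probe sets gave -0.034 for Col3a1, -0.0014 for Col6a4 and 0.031 for Col14a1. The most variable probe set gave -0.10 for Col3a1, -0.083 for Col6a4 and -0.028 for Lamb1. Without control 3 and mutant 2 together, Col23a1 was at -0.0096, Col5a1 at -0.0065 and Col6a1 at -0.058. With 1 array left out the difference ranged from -0.022 to 0.437 for Col1a2, -0.091 to 0.236 for Col3a1, -0.074 to 0.194 for Col6a1, -0.042 to 0.090 for Col23a1, -0.073 to 0.154 for Col5a1, -0.40 to 0.30 for Col1a1, -0.152 to 0.097 for Col6a2, -0.28 to 0.18 for Col14a1 and -0.084 to 0.049 for Col25a1. The cause was not tested.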
